A study of Mus musculus with 8 samples.

Results

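The following 10 genes, used as markers of homeostatic microglia, were measured in the young mouse hypothalamus after PLX3397: Tmem119, Fcrls, Selplg, Olfml3, Siglech, Slc2a5, Crybb1, Laptm5, Cd53 and Aif1. They were chosen by gene name, and all 10 were found among the 55401 genes of the deposited table. The question was how far each marker fell in each library, and whether the markers give the same share of signal left.

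Bulk RNA sequencing was done on 8 mouse hypothalami collected on postnatal day 19. The PLX3397 group held 4 pups (2 females, F1 and F2, and 2 males, M1 and M2) that received the compound orally by gavage on postnatal days 9 to 15. The vehicle group held 4 pups with the same sexes and numbers that were gavaged with vehicle over the same days. PLX3397 inhibits CSF1R, the receptor whose signalling keeps microglia alive, and the design text names its purpose here as removal of microglia. No transgene or mutant allele is named in either group, and the labels do not state the strain. The tissue label reads brain while the design text reads hypothalamus, and the libraries were treated as 1 animal each. If they were not separate animals, the p-values measure only the spread between these libraries.

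Microglia are the resident macrophages of the brain parenchyma. At rest they carry a set of surface receptors, transporters and lysosomal proteins that sets them apart from neurons and from other glia, and part of that set is shared with macrophages and blood leukocytes elsewhere in the body. Summed levels of these genes in bulk tissue are commonly read as a measure of microglial content, although in bulk samples fewer cells of a type and less RNA per cell cannot be told apart.

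Total counts were 55900335 to 67487391 in the PLX3397 libraries and 54115300 to 60001808 in the vehicle libraries. Levels are given as normalised read counts (CPM, scaled to library size by the TMM method) or, where genes are compared with each other, as the deposited FPKM, which is scaled by transcript length. A count of 0 allows up to 3 counts, which is 0.0449 to 0.0540 CPM in the PLX3397 libraries and 0.0501 to 0.0554 CPM in the vehicle libraries. Such limits and all counting intervals below cover counting error only. Mitochondrial genes took 4.87 to 5.36% of counts in the PLX3397 libraries and 4.51 to 4.88% in the vehicle libraries. The library vehicle F1 stood apart by its pituitary transcripts, with Gh, the growth hormone gene, at 2641 CPM and at no more than 0.862 CPM in the other 7 libraries. No gene of the deposited table overlaps the deposited span of any of the 10 markers. Protein-coding transcripts in the GENCODE annotation reach beyond that span for Aif1 (to 35176001, against 35173278) and Selplg (to 113832644, against 113830501). Overlap of those further bases with another gene was not checked.

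The stretches just upstream of 4 of the genes are shown first, chosen because they stand for the range of outcomes. Crybb1 and Siglech were among the genes with the lowest shares of their vehicle level left, Laptm5 lay near the middle of the 10, and Olfml3 did not fall. The sequences are RefSeq promoter sequence of build GRCm38.p6 (mm10), 5′ to 3′ on the strand of the gene. They end at the base before the gene's deposited start. For Laptm5 that start lies 191 bases before the RefSeq start. Its GGAAGT, at -63 from the RefSeq start, is therefore not in the stretch shown. Capitals mark the letters GGAAGT, the core bound by PU.1, the transcription factor of the macrophage lineage, or TGCTGA, a core bound by MAF factors, on either strand.
Crybb1 (chr5:112255615-112255814, plus strand): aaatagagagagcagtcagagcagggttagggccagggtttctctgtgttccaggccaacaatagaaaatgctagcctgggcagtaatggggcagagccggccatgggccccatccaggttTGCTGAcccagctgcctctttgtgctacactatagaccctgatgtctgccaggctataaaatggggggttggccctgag
Siglech (chr7:55767978-55768177, plus strand): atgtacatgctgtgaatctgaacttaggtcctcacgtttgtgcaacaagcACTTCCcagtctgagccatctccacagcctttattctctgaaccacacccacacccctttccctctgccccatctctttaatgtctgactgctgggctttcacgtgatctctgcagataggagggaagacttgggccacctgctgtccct
Laptm5 (chr4:130913066-130913124, plus strand): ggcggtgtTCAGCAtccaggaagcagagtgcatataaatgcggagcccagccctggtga
Olfml3 (chr3:103738002-103738201, minus strand): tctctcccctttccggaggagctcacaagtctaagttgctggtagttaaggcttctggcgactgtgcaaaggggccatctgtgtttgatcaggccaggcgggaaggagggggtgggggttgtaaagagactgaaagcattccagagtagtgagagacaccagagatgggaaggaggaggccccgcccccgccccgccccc

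The full RefSeq window, 250 bases before to 50 after the RefSeq start, was read for 8 of the 10 genes. GGAAGT was found on either strand in 4 of these 8 windows (Fcrls, Siglech, Laptm5 and Cd53), against 23.8% of all 32851 windows. The longer GAGGAAGT, which contains it, was found in Cd53 alone, against 3.2% of all windows. TGCTGA stood in 3 of 8 (Fcrls, Crybb1 and Laptm5), against 19.5%. The 10-letter IRF type, bound by interferon regulatory factors, was in the Aif1 window, against 3.44% of all windows, and the 10-letter MEF2 type was in none of the 8, against 3.69%. The Olfml3 and Slc2a5 windows held none of these letters. With 8 windows these are descriptions and not sites.

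After PLX3397, 7 of the 10 markers were lower: Tmem119, Fcrls, Selplg, Siglech, Slc2a5, Crybb1 and Laptm5. Cd53 and Aif1 did not pass the test, although no PLX3397 value of either reached the lowest vehicle value. Olfml3 was not lower. The comparison used edgeR's quasi-likelihood test with sex as a covariate, with p-values adjusted over the 16894 genes whose mean FPKM was at least 0.5 and a threshold of 0.05. Over all these genes, 1.83% were called lower and 0.308% higher, and 6.32% had all 4 PLX3397 values under all 4 vehicle values, against 9 of the 10 markers. The median log2 fold change was -3.49 over the 10 markers and -0.0025 over all genes tested. All 10 passed the filter, but 7 of them had a mean FPKM under 0.5 in the PLX3397 libraries and entered through their vehicle level, so these counts describe the set and do not test it.

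**Figure D1:**
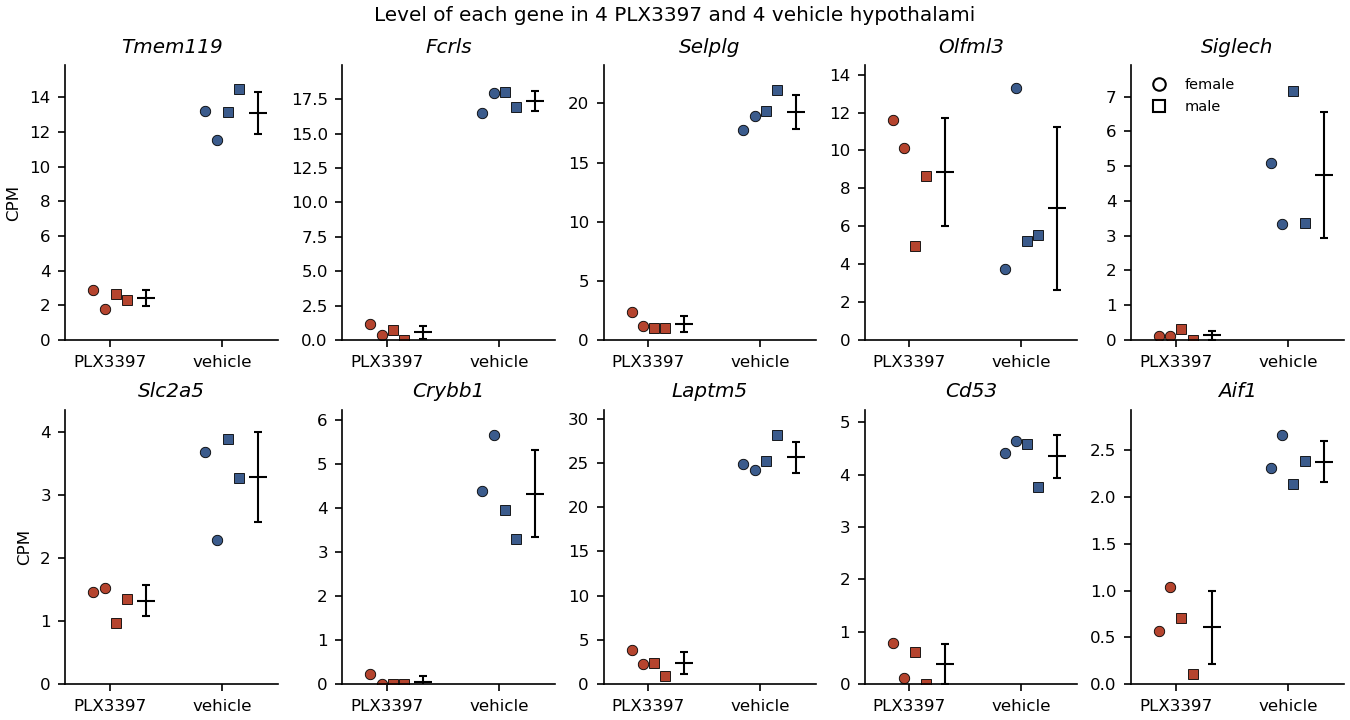
Level of each of the 10 markers in CPM, on a linear axis from 0 with its own range for each gene, in 4 PLX3397 (red) and 4 vehicle (blue) libraries; circles are females, squares males, and the bar beside each group is the mean ± SD (n = 4). Every marker but Olfml3 shows 2 groups that do not overlap, and in Olfml3 the vehicle library F2, at 13.3 CPM, lies above all 4 PLX3397 libraries.

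Among the surface proteins other than the transporter Slc2a5, Tmem119 (chromosome 5, 113793729 to 113800516, minus strand, mm10) kept the most. It encodes a transmembrane protein that separates microglia from most other brain cells and is also made by osteoblasts. It measured 2.86, 1.80, 2.66 and 2.32 CPM in PLX3397 F1, F2, M1 and M2, against 13.2, 11.6, 13.2 and 14.5 CPM in vehicle F1, F2, M1 and M2. The 4 PLX3397 values lay close together and far below every vehicle value. The means were 2.41 ± 0.461 CPM with PLX3397 and 13.1 ± 1.19 CPM with vehicle (SD, n = 4 each), a log2 fold change of -2.44 ± 0.16 (SE, adjusted p = 0.00215), or 18.4% of the vehicle mean left.

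Fcrls (chromosome 3, 87250758 to 87263738, minus strand), a mouse Fc receptor-like scavenger protein of microglia, fell much further. Its level was 1.15, 0.357, 0.710 and 0 CPM in PLX3397 F1, F2, M1 and M2, against 16.5, 18.0, 18.0 and 17.0 CPM in the vehicle libraries in the same order. PLX3397 M2 held not 1 count, while vehicle libraries held 973 to 1051. The means were 0.555 ± 0.493 CPM with PLX3397 and 17.4 ± 0.744 CPM with vehicle, a log2 fold change of -5.00 ± 0.71 (adjusted p = 0.0165). The vehicle libraries varied least in this gene of all 10, with a coefficient of variation of 4.28%. The call did not hold when PLX3397 F2 or M1, or vehicle F2, M1 or M2, was left out, with adjusted p between 0.0558 and 0.0661.

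Siglech (chromosome 7, 55768178 to 55778925, plus strand) encodes a sialic acid-binding lectin of mouse microglia and plasmacytoid dendritic cells. It had 7, 7, 19 and 0 counts in PLX3397 F1, F2, M1 and M2, against 299, 195, 388 and 202 counts in the vehicle libraries. In CPM these were 0.134 ± 0.135 with PLX3397 and 4.74 ± 1.81 with vehicle, a log2 fold change of -5.13 ± 0.69 (adjusted p = 0.0140). The library with the highest remaining level, M1, was not the one that was highest for most other markers. Without PLX3397 F2 or without vehicle M1 the adjusted p was 0.0635 and 0.0540.

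Selplg (chromosome 5, 113818536 to 113830501, minus strand) encodes PSGL-1, the ligand through which leukocytes bind selectins, and lies 18020 bases from Tmem119 on the same strand. It was at 2.40, 1.17, 0.998 and 0.972 CPM in the PLX3397 libraries F1, F2, M1 and M2, against 17.7, 18.9, 19.4 and 21.1 CPM in the vehicle libraries. PLX3397 F1 held more than the other PLX3397 libraries, which were nearly level with each other. The means, 1.38 ± 0.681 CPM with PLX3397 and 19.3 ± 1.40 CPM with vehicle, gave a log2 fold change of -3.84 ± 0.29 (adjusted p = 0.00306). Selplg kept 7.17% of its vehicle mean and Tmem119 18.4%. Their 95% intervals, -4.52 to -3.16 for Selplg and -2.81 to -2.07 for Tmem119 on the log2 scale, lay apart. Both genes were read in the same libraries, and their difference was not tested.

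Cd53 (chromosome 3, 106759921 to 106790149, minus strand), a tetraspanin found on most leukocytes, was uneven among the PLX3397 libraries. It had 53, 8, 36 and 0 counts in PLX3397 F1, F2, M1 and M2, against 260, 271, 248 and 225 counts in the vehicle libraries. The groups did not overlap, and the PLX3397 libraries ran between no count and 18.2% of the vehicle mean. Its means of 0.382 ± 0.380 CPM with PLX3397 and 4.35 ± 0.407 CPM with vehicle gave a log2 fold change of -3.51 ± 0.82 with an adjusted p of 0.0891 in edgeR, so it was not called. DESeq2 gave 0.0329, and over the 24 alternatives run the adjusted p was between 0.00249 and 0.195, passing in 5.

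The transporter of the set, Slc2a5 (chromosome 4, 150119283 to 150144169, plus strand), encodes GLUT5, which carries fructose. It measured 1.47, 1.52, 0.964 and 1.35 CPM in PLX3397 F1, F2, M1 and M2, against 3.69, 2.29, 3.90 and 3.27 CPM in the vehicle libraries. The highest PLX3397 value was below the lowest vehicle value. The means were 1.33 ± 0.252 CPM with PLX3397 and 3.29 ± 0.712 CPM with vehicle, a log2 fold change of -1.31 ± 0.24 (adjusted p = 0.0408). This call was the least firm of the 7: it held without vehicle F2 (adjusted p = 0.0321) and was lost in the other 7 fits that left out 1 library, with adjusted p between 0.0749 and 0.119.

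Of the markers inside the cell, Laptm5 (chromosome 4, 130913125 to 130936141, plus strand), a lysosomal membrane protein of macrophages and blood leukocytes, lay near the middle of the set. It was at 3.88, 2.32, 2.44 and 0.918 CPM in PLX3397 F1, F2, M1 and M2, against 24.9, 24.1, 25.3 and 28.2 CPM in the vehicle libraries. F1 kept the most and M2 the least. The means of 2.39 ± 1.21 CPM with PLX3397 and 25.6 ± 1.78 CPM with vehicle gave a log2 fold change of -3.47 ± 0.36 (adjusted p = 0.00518). This call, like those of Tmem119 and Selplg, held in all 8 fits that left out 1 library.

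Aif1 (chromosome 17, 35170991 to 35173278, minus strand) encodes IBA1, the calcium-binding protein by which microglia are usually stained in tissue sections. It had 38, 67, 42 and 6 counts in PLX3397 F1, F2, M1 and M2, against 136, 156, 116 and 143 counts in the vehicle libraries. F2 kept the most and M2 by far the least, and no PLX3397 value reached the vehicle range. With means of 0.607 ± 0.387 CPM with PLX3397 and 2.38 ± 0.220 CPM with vehicle, its log2 fold change was -2.02 ± 0.49 and its adjusted p 0.101 in edgeR, so it was not called. DESeq2 gave 0.00162, and over 23 alternatives the adjusted p was between 0.00162 and 0.235. Without PLX3397 M2 it was 0.0448.

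Crybb1 (chromosome 5, 112255815 to 112269585, plus strand) encodes a beta-crystallin, best known as a structural protein of the lens and also present in microglia. It had 16 counts in PLX3397 F1 and 0 in F2, M1 and M2, against 259, 331, 215 and 198 counts in the vehicle libraries. Of the 10 markers it was the only one without counts in more than 1 PLX3397 library. The means were 0.0599 ± 0.120 CPM with PLX3397 and 4.34 ± 0.995 CPM with vehicle, a log2 fold change of -6.23 ± 0.88 (adjusted p = 0.0158). With the 3 zeros set to the most that a count of 0 allows, the share left was 2.25% in place of 1.38%. The adjusted p was between 0.0501 and 0.0560 without PLX3397 M1 or without vehicle F2, M1 or M2. Its neighbour Cryba4, another crystallin gene 3297 bases away on the opposite strand, had no count in any PLX3397 library, against 21, 79, 13 and 20 counts in the vehicle libraries, and was too low to enter the test.

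Olfml3 (chromosome 3, 103722222 to 103738001, minus strand), a secreted glycoprotein with an olfactomedin domain, did not follow the others. It was at 11.6, 10.1, 4.97 and 8.67 CPM in PLX3397 F1, F2, M1 and M2, against 3.74, 13.3, 5.23 and 5.56 CPM in vehicle F1, F2, M1 and M2. The groups overlapped, and vehicle F2 was higher than any other library. The means of 8.84 ± 2.85 CPM with PLX3397 and 6.95 ± 4.29 CPM with vehicle gave a log2 fold change of 0.35 ± 0.36 with a 95% interval of -0.50 to 1.20 (adjusted p = 0.700). Leaving out vehicle F1 and PLX3397 M2 together turned the estimate to -0.20. The GENCODE annotation (vM21) gives this gene 4 transcripts, 2 of them protein coding, and the deposited count does not say which of them the reads came from. Beside it, 12 fibroblast and osteoblast genes summed to 267 to 313 CPM in the PLX3397 libraries and 216 to 296 CPM in the vehicle libraries. Shares left within these 12 ran between 42.2% and 230%, and 2 of them were called higher. Their sum therefore does not show that the content of these cells was steady. A list of 10 endothelial genes summed to 240 to 266 CPM in the PLX3397 libraries and 220 to 271 CPM in the vehicle libraries. The part of other cell types in the Olfml3 level was not tested.

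**Figure D2:**
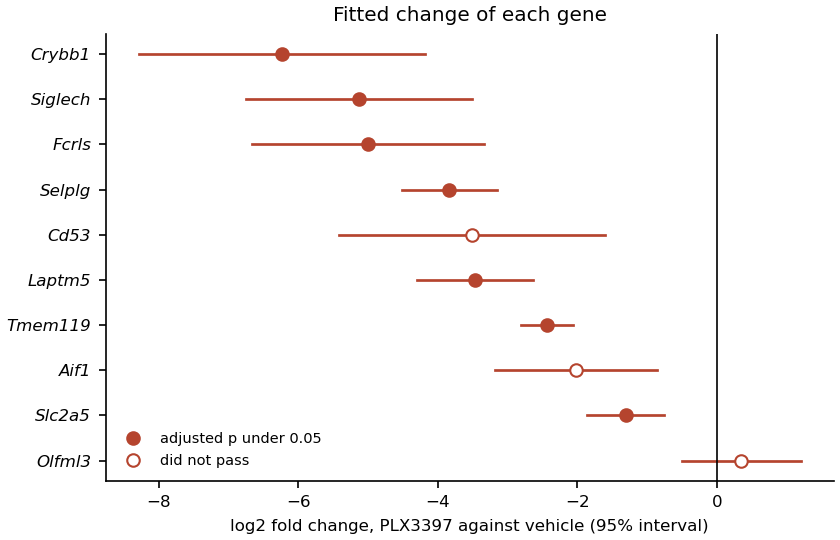
Log2 fold change of each marker, PLX3397 against vehicle, with its 95% interval from edgeR; filled points passed an adjusted p of 0.05 and open points did not. Crybb1 has the lowest estimate, -6.23, and Olfml3, at 0.35, is the only marker whose interval crosses 0.

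Expressed per transcript length, the order of the markers in the vehicle hypothalamus was Fcrls at 6.54 FPKM, Laptm5 at 5.94, Tmem119 at 4.97, Selplg at 3.96, Crybb1 at 3.86, Cd53 at 2.19, Aif1 at 1.34, Siglech at 1.22, Olfml3 at 0.987 and Slc2a5 at 0.839. Neighbours whose ranges over the 4 libraries overlapped were Fcrls and Laptm5, Selplg and Crybb1, Aif1 and Siglech, Siglech and Olfml3, and Olfml3 and Slc2a5, so these did not differ beyond their spread. In the PLX3397 libraries the order was Olfml3 at 1.25 FPKM, Tmem119 at 0.907, Laptm5 at 0.546, Aif1 and Slc2a5 both at 0.335, Selplg at 0.277, Fcrls at 0.206, Cd53 at 0.188, Crybb1 at 0.0497 and Siglech at 0.0324. Fcrls, the highest in the vehicle hypothalamus, came after Slc2a5, the lowest there. Their levels in the PLX3397 libraries were 0.206 ± 0.183 FPKM for Fcrls and 0.335 ± 0.0621 FPKM for Slc2a5, a gap within the spread of Fcrls.

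The share of signal left was then read library by library, as the CPM in a PLX3397 library in percent of the mean of the 4 vehicle libraries. Averaged over the 4 libraries and with Olfml3 set aside, it was lowest for Crybb1 at 1.38%, Siglech at 2.82% and Fcrls at 3.19%. It was highest for Aif1 at 25.5%, which was not called, and Slc2a5 at 40.3%. Selplg at 7.17%, Cd53 at 8.78% and Laptm5 at 9.31% lay between them, with Tmem119 at 18.4%. Olfml3 stood at 127%. Some of the low shares rest on 1 library: Siglech was at 1.50% without PLX3397 M1, and without PLX3397 F1 Fcrls was at 2.05%, Cd53 at 5.62% and Crybb1 at 0%. The order of Crybb1, Siglech and Fcrls among themselves therefore changed with the library left out. In vehicle libraries the same measure, taken for single libraries, had medians over the 10 markers between 98.5 and 101%, and its extremes were 53.8% and 191%, both of Olfml3.

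In PLX3397 F1 the median over the 10 markers was 16.7%, the highest of the 4 libraries. Selplg was at 12.4% there, Laptm5 at 15.1%, Cd53 at 18.2%, Tmem119 at 21.8% and Aif1 at 23.9%, while Siglech was at 2.21%, Crybb1 at 5.52%, Fcrls at 6.63% and Slc2a5 at 44.6%. Selplg, Laptm5, Cd53, Tmem119 and Aif1 thus lay between 12.4 and 23.9% in this library, and the remaining markers lay outside that range.

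PLX3397 F2 had a median of 7.54%. Selplg at 6.05% and Laptm5 at 9.04% lay nearest to it, Tmem119 at 13.8% above, Fcrls at 2.06%, Siglech at 2.30% and Cd53 at 2.86% below, and Crybb1 had no count, which allows up to 1.08%. Aif1 at 43.8% and Slc2a5 at 46.3% were far above. The IBA1 gene and the fructose transporter thus kept a share many times that of Fcrls in the same library.

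PLX3397 M1 had a median of 11.8%. Its shares were 4.09% for Fcrls, 5.18% for Selplg, 6.78% for Siglech, 9.50% for Laptm5, 14.0% for Cd53, 20.3% for Tmem119, 29.3% for Slc2a5 and 29.9% for Aif1, and Crybb1 had no count, which allows up to 1.17%. Olfml3 had its lowest share here, 71.5%.

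PLX3397 M2 had the lowest median, 4.06%. Fcrls, Siglech, Crybb1 and Cd53 had no count, which allows up to 0.311%, 1.14%, 1.25% and 1.24% of their vehicle means. Laptm5 was at 3.58%, Aif1 at 4.54% and Selplg at 5.04%, close to each other, while Tmem119 was at 17.7% and Slc2a5 at 41.1%. Neither Tmem119 nor Slc2a5 had its lowest value in M2, although 7 of the 10 markers had their lowest value there, ties included. In F1, 7 of the 10 had their highest.

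**Figure D3:**
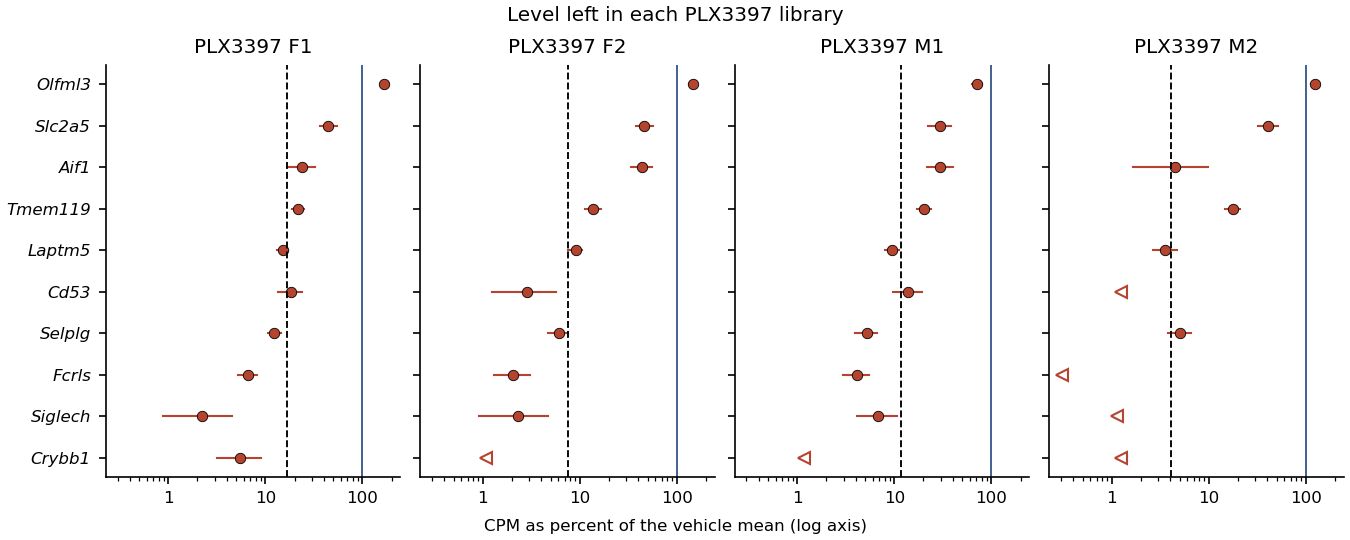
CPM in each PLX3397 library in percent of the mean of the 4 vehicle libraries, on a log axis, with 95% exact Poisson intervals of the count (bars); open triangles mark a count of 0, drawn at the most that 3 counts allow, the dashed line is the median of the 10 markers and the blue line 100%. Medians are 16.7, 7.54, 11.8 and 4.06% in F1, F2, M1 and M2, and most bars lie clear of the dashed line.

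The shares left were spread widely around the median of each PLX3397 library. The 95% exact Poisson interval of a marker's count, set against the vehicle mean taken as fixed, held the library's median for 2 of 10 markers in F1, 1 in F2, 1 in M1 and 3 in M2. In the vehicle libraries, read in the same way against their own median, it did so for 8 of 10 in F1, 4 in F2, 7 in M1 and 3 in M2. Counting intervals leave out the variation between libraries of a group, which moved markers off the median in the vehicle libraries too, so these tallies are a description and not a test of a common share. In PLX3397 libraries, Tmem119, Olfml3 and Slc2a5 had intervals above the median in all 4 libraries, and Fcrls, Siglech and Crybb1 below it in all 4. These 6 markers thus kept their side of the median in all 4 libraries, while the medians themselves ranged between 4.06% and 16.7%. Aif1 had its interval above the median in 3 libraries, all but M2. Between markers, the 95% intervals of the log2 fold changes, which take in the spread between libraries, lay apart in 22 of 45 pairs. With Olfml3 set aside, this was so in 13 of 36. All markers were read in the same libraries, so separate intervals are a description and do not test 1 marker against another. Without Olfml3 the library medians were 15.1, 6.05, 9.50 and 3.58% in F1, F2, M1 and M2.

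Both sexes showed lower markers. Within females, 2 PLX3397 against 2 vehicle libraries in a model of 4 groups that shares 1 estimate of the spread, edgeR called Tmem119 (log2 fold change -2.41, adjusted p = 0.0218) and Selplg (-3.36, adjusted p = 0.0180), 2 of 10 markers against 0.278% of all genes. Within males it called Tmem119 (-2.47, adjusted p = 0.00955), Selplg (-4.36, adjusted p = 0.00567) and Laptm5 (-3.99, adjusted p = 0.0143), 3 of 10 against 1.35%. The other markers had fold changes in the same direction in both sexes without passing, apart from Olfml3 at 0.35 in females and 0.34 in males. Crybb1 had no count in either male PLX3397 library, so its fitted change in males is not a bound.

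No marker passed the test of the difference between the sexes, against 0.077% of all genes in edgeR and 6.01% of all genes at an unadjusted p under 0.05. At that unadjusted level none of the 10 passed either. The smallest unadjusted p was that of Selplg, 0.0545 (adjusted 0.820), where the log2 fold change was less negative in females by 0.998 ± 0.426. For Tmem119 the difference was 0.06 ± 0.33. A p that misses the threshold does not show that the sexes responded alike.

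Genes whose libraries followed the 10 markers most closely were sought among all tested genes, as the smallest root mean square distance over 8 libraries between log2(CPM + 0.1) less its vehicle mean and the median of the same over the markers. Laptm5 itself was nearest, at 0.20, followed by Mpeg1 at 0.22 and Ly86 at 0.28, the genes of the macrophage pore-forming protein perforin-2 and of the Toll-like receptor partner MD-1. Cyth4, Fcgr3, Pld4, Ltc4s, 9630013A20Rik and Fcer1g came next among other genes, at 0.32 to 0.49. Mpeg1 averaged 2.51 ± 1.60 CPM with PLX3397 and 21.4 ± 1.84 CPM with vehicle, 11.7% left. Among the markers, Selplg ranked 8 and Cd53 10 of the 16894 genes, Tmem119 35, Siglech 41, Aif1 55, Crybb1 63, Fcrls 84, Slc2a5 162 and Olfml3 16407. The ranking gives likeness of these 8 values and nothing else.

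**Figure D4:**
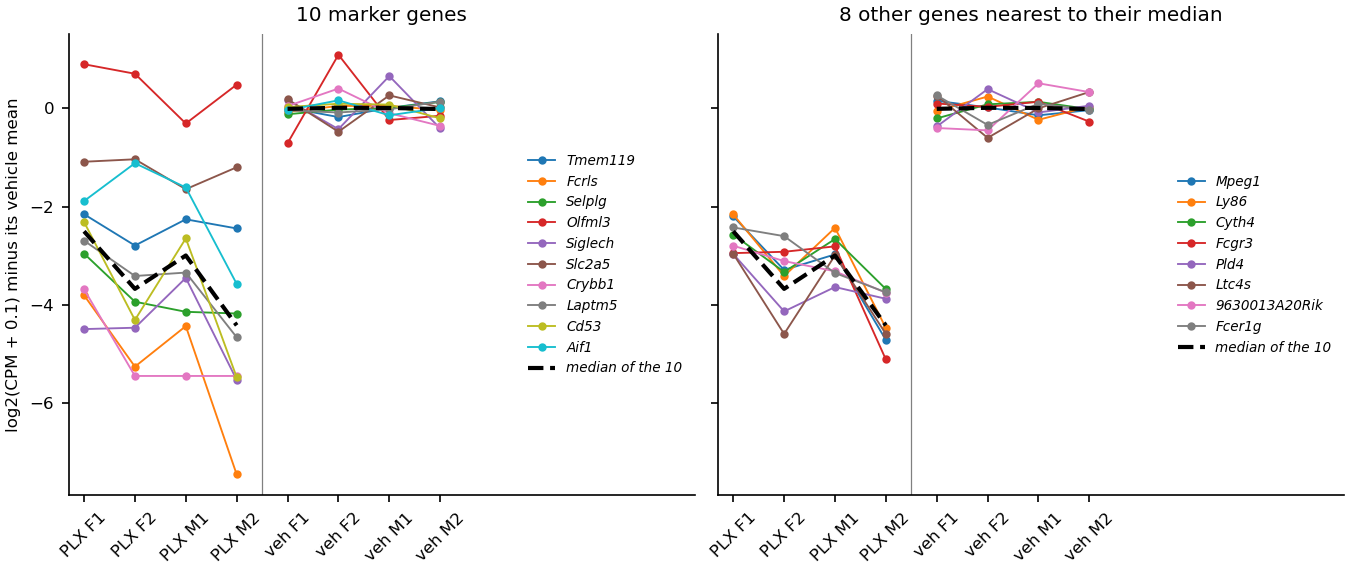
Profiles over the 4 PLX3397 and 4 vehicle libraries, as log2(CPM + 0.1) minus the gene's own vehicle mean, of the 10 markers (left) and of the 8 other genes nearest to their median (right); the dashed line is the median of the 10, and lines join the values of a gene without standing for an order of the libraries. The median lies at -2.50 in PLX3397 F1, -3.67 in F2, -2.99 in M1 and -4.42 in M2 and near 0 in the vehicle libraries, and Olfml3 stays between -0.71 and 1.09 throughout.

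A wider list of 30 microglial genes was lower too. Of its 26 tested genes, 19 were called lower by edgeR, the median log2 fold change was -3.39, and 1 had a positive fold change, Mertk at 0.09 (adjusted p = 0.764). Those with a small p included P2ry12, a purine receptor (0.680 ± 0.165 CPM with PLX3397, 19.9 ± 3.18 CPM with vehicle), Itgb2, an integrin chain (0.509 ± 0.174 CPM with PLX3397, 3.56 ± 0.198 CPM with vehicle), and Fcer1g, the Fc receptor gamma chain (0.486 ± 0.238 CPM with PLX3397, 4.42 ± 0.767 CPM with vehicle). The share left, averaged over the PLX3397 libraries, ran between 1.01% and 107% over the 30 genes, with a median of 11.0%. These genes thus differed widely in the share left as well. Their median share of the vehicle mean was 15.4% in PLX3397 F1, 11.8% in F2, 13.2% in M1 and 2.65% in M2. F1 was highest and M2 lowest here too.

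Cells that share some of the markers were read from their own lists. Of 14 genes of border-associated macrophages, 4 were tested and all 4 (Stab1, Mrc1, Maf and Cbr2) were called lower. The 14 summed to 18.5 to 21.4 CPM in the PLX3397 libraries and 48.4 to 62.0 CPM in the vehicle libraries. Most of the PLX3397 sum was Maf, at 11.6 ± 0.724 CPM with PLX3397 and 17.0 ± 1.28 CPM with vehicle, 68.2% left. The median share left over the 14 genes was 12.8%. Of 15 genes of blood leukocytes, which carry Selplg, Laptm5 and Cd53, 4 were tested. Ngp, of neutrophils, had 0.678 ± 0.254 CPM with PLX3397 and 2.05 ± 0.916 CPM with vehicle without passing (adjusted p = 0.136), and S100a8, S100a9 and Flt3 had log2 fold changes between -0.15 and 0.14. The 15 summed to 19.1 to 38.7 CPM in the PLX3397 libraries and 23.9 to 32.2 CPM in the vehicle libraries. Most of both sums was Flt3, with means of 14.30 CPM with PLX3397 and 12.99 CPM with vehicle, and S100a9, with 7.24 and 6.13 CPM. The median share left over the genes of this list with counts in the vehicle libraries was 68.9%, with shares between 0 and 413%. The sum therefore does not show that leukocyte content was steady. Of 12 fibroblast and osteoblast genes, 11 were tested and 2 were called higher (Slc6a13 and Aldh1a2). Its osteoblast genes Sp7 and Bglap, at 44.2% and 42.2% of the vehicle mean, did not pass (edgeR, adjusted p = 0.199 and 0.422), and neither did Alpl at 95.2% (adjusted p = 0.686), while Runx2, at 102%, was not tested. The part of these cells in the marker signal that was left was not tested.

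Oligodendrocyte genes were lower in the same libraries. Of 12 genes, 8 were called lower, led by Gpr17, Sox10, Enpp6 and Bcas1, with a median log2 fold change of -1.16. The 12 summed to 3707 CPM in PLX3397 F1, 2386 in F2, 2904 in M1 and 1796 in M2, against 5165 to 7795 CPM in the vehicle libraries. Over these 4 libraries, the order from high to low was that of the median share of the markers: F1, M1, F2 and M2. That order was not particular to oligodendrocyte genes. Of the 10 endothelial genes, none was called lower and 1, Flt1, was called higher (edgeR, adjusted p = 0.0464). The 10 summed to 266 CPM in PLX3397 F1, 256 in M1, 250 in F2 and 240 in M2. Lists of 8 astrocyte and 8 neuron genes stood in other orders. A link between the marker and oligodendrocyte levels was not tested.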

How the data were processed

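RNA was read in 8 libraries, 4 PLX3397 and 4 vehicle, grouped by their titles. Ribosomal RNA was removed with probes and cDNA was primed at random, per the labels' protocols. The authors deposited raw counts of each gene together with FPKM values that they computed. Build mm10 and the tools HISAT2, StringTie, limma, DESeq2 and bcl2fastq 2.0 are named in the submitters' processing notes. Their roles, the counting settings and any use of strand are not given in the sources here. In the FPKM columns a count of 0 is listed as 1e-04, and how the counting treats the last few reads of a gene is not known.

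Counts were scaled by TMM and tested with edgeR 4.0.16 (R 4.3.3, quasi-likelihood F-test, installed defaults, two-sided, Benjamini-Hochberg over the 16894 genes averaging at least 0.5 FPKM, threshold 0.05), with sex as a covariate. Standard errors are the absolute log2 fold change over the root of F. The degrees of freedom of the markers, residual and prior together, were 7.50. Effects within each sex and their difference came from a model of 4 groups. Remaining shares, library medians and counting intervals (exact Poisson, 95%) were computed from scaled CPM with no test. The treatment fit was checked on simulated counts with the same dispersion for every gene. The shares, counting intervals and models within sexes were not checked in this way. Alternatives covered scaling, filters, DESeq2 1.42.0, limma 3.58.1, edgeR settings, covariates, denominators and leaving out libraries. Figures were drawn with matplotlib 3.10.9.

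The 10 markers and all gene lists were chosen with earlier results of these data known. Besides the markers, the rule names the 8 tested genes with the nearest profile, up to 4 genes per list with the smallest p and called genes of the opposite direction, and genes next to a marker. A gene that the rule takes is not reported here. Mertk, Sp7, Bglap, Alpl, Runx2 and Gh were chosen after their values were seen. Coordinates are the deposited ones, in mm10. Xist and Ddx3y fitted the sex labels in all 8 libraries. Libraries of a group differed from each other by more than sampling noise. The deviations of libraries with the same number had correlations of 0.0771, 0.1009, 0.083 and 0.0296 between groups, so the numbers were not taken to pair animals.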

Additional observations from a re-analysis of the deposited data

Results flagged for a closer look

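In 20 groups of 4 libraries, 10 markers in each of 2 treatments, the highest or lowest library was compared with the others by Dixon's test, which chance passes in about 1 of 20 groups. It singled out 2 values. Selplg in PLX3397 F1, at 2.40 CPM, stood above the other PLX3397 libraries, whose highest value was 1.17 CPM. Crybb1 in PLX3397 F1, at 0.240 CPM, stood above the other PLX3397 libraries, which had no count. The second rests on 16 counts: with the other 3 libraries at 0, any count in the fourth takes up the whole range, so the zeros fix this result. Both values are of the library that also had the highest median share left, 16.7%, and without PLX3397 F1 the mean share left was 5.42% for Selplg in place of 7.17% and 0% for Crybb1 in place of 1.38%.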

How the results depend on the processing

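Lower values of the 9 markers other than Olfml3 kept their direction under every alternative for the comparison of treatments (23 to 24 for each marker), and the calls of Tmem119, Selplg and Laptm5 passed in all of them. Siglech passed in 21 of 23, Fcrls and Crybb1 in 18 of 24 each, and Slc2a5 in 10 of 23. The log2 fold change ran between -5.99 and -1.08 for Siglech, -1.50 and -0.46 for Slc2a5 and -10.92 and -2.20 for Crybb1. The values nearest 0 are those of limma on log2(FPKM + 1), whose pseudocount understates low genes by construction, and -10.92 came without PLX3397 F1, where no count of Crybb1 is left with PLX3397, and is no bound. DESeq2, like edgeR with its newer dispersion setting, called 9 markers lower. DESeq2 called 755 genes lower and 342 higher over all genes. With the replicate block 69 genes were called lower, 10 higher, and 4 markers lower. The numbers were not taken to pair animals. Of the 4 PLX3397 libraries, 3 (F1, F2 and M2) correlated best with their own number. Libraries of the same number also share their sex, which was not removed from these deviations, so this does not show pairing. Without vehicle F1 and PLX3397 M2 together 105 genes were lower and 18 higher. Leaving out 1 library gave 117 to 328 genes lower, 16 to 37 higher and 3 to 7 markers lower. It gave 18 to 67 genes and 0 to 5 markers lower within females, 54 to 213 genes and 1 to 6 markers lower within males, and 0 to 19 genes for the difference between sexes. The lowest marker counts, 3 and 0, came without vehicle M1 and, within females, without vehicle F1. Olfml3 turned to -0.20 without vehicle F1 and PLX3397 M2 together, ran between -0.11 and 0.69 within males and between -0.29 and 1.54 within females when 1 library was left out, and its mean share left was 183% without vehicle F2. Differences between sexes changed sign for some markers when 1 library was left out, with ranges of -0.31 to 0.36 for Tmem119, -0.63 to 1.20 for Olfml3, -0.47 to 6.36 for Crybb1, -1.42 to 7.66 for Cd53 and -1.26 to 6.02 for Siglech. The cause of these changes was not tested. A filter at a mean FPKM of 1 left out Siglech, Slc2a5 and Aif1, which have no value there. Over the 10 alternatives for each, the library median of the share left ran between 15.1 and 16.8% in F1 and between 6.05 and 7.90% in F2. It ran between 9.50 and 11.9% in M1 and between 3.58 and 4.13% in M2. The lowest value in each library came without Olfml3. Depth limits shares near 0: the counts of 0 allowed between 0.311 and 1.25% of the vehicle mean.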

Other observations

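Near Aif1, 11817 bases from its deposited span, lies Lst1, a leukocyte-specific transcript gene that is not among the 10 markers. It had 50, 47, 31 and 29 counts in PLX3397 F1, F2, M1 and M2, against 115, 94, 92 and 108 counts in the vehicle libraries. The groups did not overlap, and the log2 fold change was -1.50 ± 0.19 (edgeR, adjusted p = 0.0116). Lst1 was named after its values were seen. The gene next to Aif1 on the other side, Prrc2a, averaged 533 CPM with PLX3397 and 516 CPM with vehicle (log2 fold change 0.05, adjusted p = 0.583).

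The protein-coding genes nearest to Tmem119, Fcrls, Selplg, Siglech and Cd53 (Iscu, Kirrel, Coro1c, Tubgcp5 and Lrif1) had log2 fold changes between -0.13 and 0.10, with adjusted p between 0.498 and 0.880 in edgeR. The nearest ones to Olfml3, Slc2a5 and Laptm5 were too low to be tested. Gm10964, beside Olfml3, averaged 0.00777 CPM with PLX3397 and 0 CPM with vehicle, and Slc2a7, beside Slc2a5, had no count in either group. Matn1, a cartilage matrix protein gene 8244 bases from Laptm5 on the same strand, had 8, 0, 12 and 0 counts in PLX3397 F1, F2, M1 and M2, against 10, 42, 80 and 48 counts in the vehicle libraries. Its CPM values overlapped between the groups, with 0.203 CPM in PLX3397 M1 and 0.170 CPM in vehicle F1.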
